A study of Rattus norvegicus with 6 samples.

Results

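The 10 genes described here encode the actin core of the stereocilium, the proteins at its tip and the receptor phosphatase that anchors its shaft. They were chosen by name, as the rows of the deposited gene table with the symbols Espn, Espnl, Fscn2, Pls1, Xirp2, Eps8, Eps8l2, Myo3a, Myo3b and Ptprq, so 10 of 32883 genes, and all 10 entered the test. RNA came from the vestibular epithelium of Long-Evans rats, pooled per animal from 2 utricles and 6 cristae. The 3 STREP animals received streptomycin, an aminoglycoside antibiotic toxic to hair cells (HCs), at 500 mg/kg s.c. once a day for 6 weeks from postnatal day 21. The 3 Control animals were injected with the vehicle, PBS. Each group held 2 males and 1 female, replicate 3 being the female, and the labels give no replicate number that would pair animals across groups.

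Stereocilia are the actin-filled projections on the apical surface of HCs, and their deflection opens the mechanotransduction channels. Each core is a bundle of parallel actin filaments held together by crosslinkers of the espin, fascin and plastin families. Class III myosins carry espins towards the tip, where EPS8 proteins regulate filament growth, and PTPRQ forms connectors along the lower shaft. In humans, variants in several of these genes cause hearing loss, in some cases with vestibular dysfunction.

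Library totals ran from 48568191 to 59906048 counts in Control and from 29333584 to 33744909 in STREP animals, so depth did not overlap between the groups. All values are normalised counts (counts divided by the DESeq2 size factor) unless stated. A gene was called when its DESeq2 adjusted p-value over all 16250 tested genes was under 0.05 and its fold change exceeded 1.5. On the scale of normalised counts, STREP replicate 3 stood apart in abundant genes of other cells. Its 12 supporting cell markers summed to 1133750, against 578599 to 740646 in the other 5 libraries. As a share of the library total (CPM), they summed to 15738 to 17576 in Control and 18643 to 22460 in STREP animals. The groups did not overlap on that scale. All 3 calls given below held without STREP replicate 3 (Ptprq at -0.66, DESeq2 adjusted p = 0.0230). The HC markers Myo7a and Otof were present in every library. The epithelium also held Schwann cell transcripts, with 6 markers that summed to 243677 to 338519 normalised counts in Control and 128287 to 271789 in STREP animals. In such bulk tissue, fewer cells of a type and less RNA per cell cannot be told apart.

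Of the 10 genes, Xirp2, Fscn2 and Ptprq fell in STREP animals, to between 59.6 and 65.9% of the Control mean, and 0 rose. Among all genes tested, 1.37% were called lower and 1.87% higher, or 3.24% in either direction. Without the fold change threshold, 4 members were lower, the fourth being Espnl, against 1.62% of all genes. A log2 fold change below 0 was found for 7 members and for 49% of all genes. At an unadjusted p under 0.05 in DESeq2, 5 members were lower and 1, Eps8, was higher, against 5.56% and 6.65% of all genes. With edgeR and a count filter, 2 members were called lower, Xirp2 and Fscn2, against 0.844% of genes, and 0 were called higher. The groups did not overlap for 5 members in the lower direction (Xirp2, Fscn2, Ptprq, Espnl and Myo3a) and for 1, Eps8, in the higher direction. Over all genes tested these shares were 8.63% and 9.12%. The remaining 4 members, Espn, Pls1, Eps8l2 and Myo3b, overlapped between groups. The median log2 fold change of the members was -0.38, and that of all genes tested was 0.0069.

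**Figure D1:**
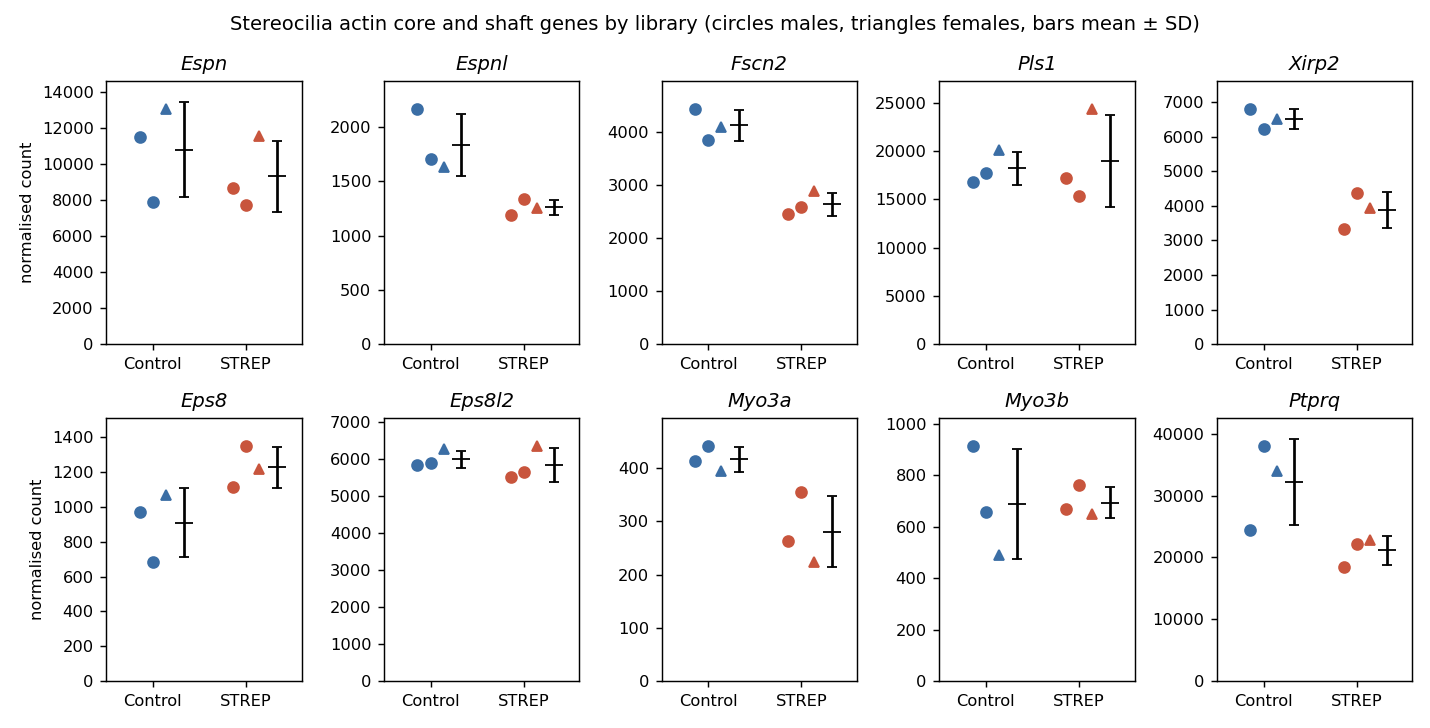
Normalised counts (y axis, from 0) of the 10 genes in each Control (blue) and STREP (red) library, with males as circles, females as triangles, and the mean ± SD (n = 3) as a black bar. All STREP points lie below all Control points for Espnl, Fscn2, Xirp2, Myo3a and Ptprq and above them for Eps8.

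**Figure D2:**
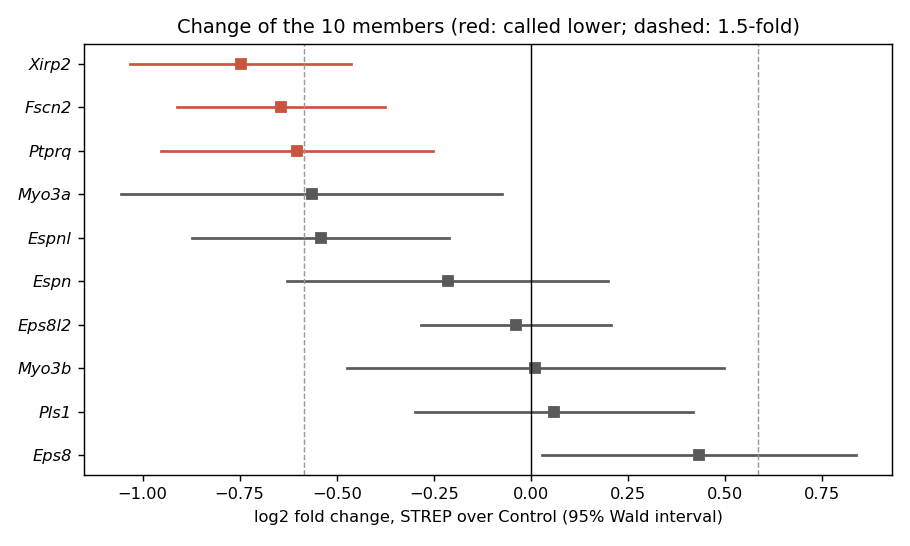
Log2 fold change of each gene (STREP over Control, x axis) with its 95% Wald interval from DESeq2, and dashed lines at a 1.5-fold change. The order runs from Xirp2 at -0.75 to Eps8 at 0.43, and the 3 genes called lower are in red.

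Among the crosslinkers, Fscn2 fell and the most abundant in counts, Pls1 and Espn, were not called. Fscn2 (ENSRNOG00000036700) encodes fascin-2, which stiffens the bundle of mature HCs and is also known from photoreceptors. Its normalised counts, listed here and below in the order of replicates 1, 2 and 3, were 4428, 3853 and 4088 in Control and 2459, 2585 and 2880 in STREP animals. The lowest Control library exceeded the highest STREP library by 973 normalised counts. The mean went from 4123 ± 289 to 2641 ± 216 (SD, n = 3), which the DESeq2 fit put at -0.64 ± 0.14 on the log2 scale (SE, adjusted p = 0.00022). Fscn2 stayed called with each library left out in turn, with log2 fold changes from -0.71 to -0.59. The change was present in both sexes, at -0.72 on the log2 scale between the means of the males and -0.51 between the single females.

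Espn (ENSRNOG00000010270) encodes espin, the crosslinker whose loss shortens stereocilia in the jerker mouse. Its normalised counts were 11468, 7863 and 13018 in Control and 8629, 7720 and 11532 in STREP animals. The female had the highest value in each group, and STREP values lay within or just under the Control range. Its log2 fold change was -0.21 ± 0.21 (SE, DESeq2 adjusted p = 0.817), and its 95% Wald interval, from -0.63 to 0.20, still held a 1.5-fold decrease. Leaving out single libraries moved it between -0.40 (without Control replicate 2 or without STREP replicate 3) and -0.057 (without Control replicate 3).

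Espnl (ENSRNOG00000024717), the espin-like paralogue that is also a cargo of class III myosins, had 2163, 1708 and 1628 normalised counts in Control and 1192, 1334 and 1254 in STREP animals. All STREP values were lower, and the spread was wider in Control, with 1833 ± 288 against 1260 ± 71.7 (SD, n = 3). The log2 fold change of -0.54 ± 0.17 (SE) passed the adjusted p-value (DESeq2 adjusted p = 0.0387) but not the fold change threshold, so Espnl was not called. It was called without Control replicate 3 (-0.62, DESeq2 adjusted p = 0.0343). Every other omission put its DESeq2 adjusted p above 0.05, from 0.0548 without STREP replicate 2 to 0.217 without Control replicate 1. With edgeR and a count filter the adjusted p was 0.112. As CPM, counts scaled to the library total, the groups overlapped, at 38.6 to 58.8 in Control and 24.8 to 38.8 in STREP animals.

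Pls1 (ENSRNOG00000009945) encodes plastin-1, or fimbrin, the most abundant crosslinker protein of many stereocilia and also a component of the cuticular plate and of intestinal microvilli. Its normalised counts were 16764, 17675 and 20142 in Control and 17220, 15337 and 24323 in STREP animals. The female again had the highest value in each group, and STREP replicate 3 lay above all other libraries. DESeq2 gave a log2 fold change of 0.06 ± 0.18 (SE, adjusted p = 0.973, 95% Wald interval from -0.30 to 0.42), which was -0.16 without STREP replicate 3. The interval does not reach the decrease fitted for Fscn2.

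Xirp2 (ENSRNOG00000034258) had the lowest log2 fold change of the 10. It encodes an actin-binding protein with Xin repeats that is known from the intercalated discs and sarcomeres of striated muscle and, in HCs, from the maintenance and repair of the stereocilia core. Its normalised counts were 6789, 6213 and 6504 in Control and 3322, 4372 and 3928 in STREP animals. Control animals differed little, with a coefficient of variation of 4.43%, and the highest STREP library lay 1842 normalised counts below the lowest Control library. The mean fell from 6502 ± 288 to 3874 ± 527 (SD, n = 3), or by -0.75 ± 0.15 on the log2 scale in the DESeq2 fit (SE, adjusted p = 3.04e-05). Xirp2 was called with each library left out in turn, at log2 fold changes from -0.85 to -0.65. The change was -0.76 between the means of the males and -0.73 between the single females on the log2 scale.

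Because Xirp2 is also a muscle gene, markers of striated muscle were read beside it. Acta1, the actin of skeletal muscle, had at most 10 counts in any library, and Ckm, the muscle creatine kinase, at most 2. Other markers of the list were present, with up to 943 counts for Tnnc2, 720.0 for Casq1, 559 for Myh4 and 404 for Neb. Myh4, a fast myosin heavy chain, ranged from 44.8 to 481 normalised counts in Control and from 276 to 549 in STREP animals, which overlapped. Xirp1, the paralogue known from heart and skeletal muscle, had 0 counts in all 6 libraries. The 9 muscle markers in the table summed to 1069.7 to 2106 normalised counts in Control and 1393 to 1779 in STREP animals, which overlapped, and 0 of the 6 tested were called by DESeq2 or by edgeR. None of the 6 had an unadjusted p under 0.05. The list does not hold every muscle gene. Tnnc1, a troponin gene outside it that is named after its values were seen, was called lower (-1.83, DESeq2 adjusted p = 8.58e-08). The cell type behind this change was not tested.

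RefSeq promoter windows (build GRCr8, whereas the counts were made on Rnor6.0) were matched by symbol for 7 of the 10 genes. The 250 bases upstream of the annotated start are shown for Xirp2 (chr3:72533936-72534185, + strand), the gene with the lowest log2 fold change, and for Eps8l2 (chr1:205875575-205875824, + strand), a tip gene whose level was close between groups, to set the start of a gene that fell beside that of one that was not called. The last 11 bases of the Xirp2 window lie inside the annotated gene span. Both are written 5′ to 3′, and capitals mark the motif matches.
Xirp2: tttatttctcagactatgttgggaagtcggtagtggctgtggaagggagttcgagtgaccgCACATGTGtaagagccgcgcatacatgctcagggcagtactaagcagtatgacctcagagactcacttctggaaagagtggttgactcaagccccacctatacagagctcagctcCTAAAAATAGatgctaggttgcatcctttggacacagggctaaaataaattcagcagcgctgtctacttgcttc
Eps8l2: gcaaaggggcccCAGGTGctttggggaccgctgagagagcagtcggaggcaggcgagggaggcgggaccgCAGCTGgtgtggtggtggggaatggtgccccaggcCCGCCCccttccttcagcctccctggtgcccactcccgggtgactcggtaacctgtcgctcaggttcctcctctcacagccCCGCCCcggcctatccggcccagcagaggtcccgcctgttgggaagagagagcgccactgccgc

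The windows were searched on both strands for the E-box (CANNTG), the GC box (GGGCGG), the CCAAT box (CCAAT), the TATA box (TATAAA), the CArG box bound by SRF, and the site of the MEF2 factors, the last added after the Xirp2 sequence had been seen. The Xirp2 window held 2 overlapping E-boxes that begin 189 and 187 bases upstream of the start, and a MEF2 site that begins 74 bases upstream. MEF2 factors regulate many muscle genes. Of all 33469 RefSeq promoter windows of this length, 65.5% held an E-box and 0.523% a MEF2 site. The Eps8l2 window held E-boxes that begin 238 and 180 bases upstream and GC boxes that begin 145 and 64 bases upstream, a motif in 30.5% of windows. GC content was 48.0% for Xirp2 and 70.0% for Eps8l2, with a median of 51.2% over all windows. The CCAAT, TATA and CArG boxes, in 34.0, 12.9 and 1.5% of all windows, were found in neither. These matches describe letters only.

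At the tip, neither of the paralogues Eps8 and Eps8l2 was called. Eps8 (ENSRNOG00000007047) encodes an actin capping and bundling protein that MYO15A delivers to the tips of the tallest row, and it is also made by many other cell types. It had 972, 686 and 1071 normalised counts in Control and 1113, 1351 and 1218 in STREP animals. All STREP values were above all Control values, although the closest pair, Control replicate 3 and STREP replicate 1, differed by little. The means were 909.6 ± 199.8 and 1227 ± 119 (SD, n = 3). The log2 fold change of 0.43 ± 0.21 (SE) did not pass the adjusted p-value (DESeq2 adjusted p = 0.347), and as CPM the groups overlapped, at 16.6 to 26.4 in Control and 24.1 to 39.3 in STREP animals.

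Eps8l2 (ENSRNOG00000018336), which localises to the tips of shorter rows and serves long-term maintenance of the bundle, had 5835, 5875 and 6247 normalised counts in Control and 5503, 5646 and 6341 in STREP animals. The ranges overlapped, and the coefficients of variation were 3.80% in Control and 7.69% in STREP animals. On the log2 scale the fold change was -0.04 ± 0.12 (SE, DESeq2 adjusted p = 0.974), with a 95% Wald interval from -0.28 to 0.21, which excludes a 1.5-fold change in either direction.

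The class III myosins had the lowest counts of the 10 genes together with Eps8. Myo3a (ENSRNOG00000018478), whose human counterpart underlies a progressive form of deafness, had 414, 442 and 395 normalised counts in Control and 264, 355 and 224 in STREP animals. All STREP values were lower, with STREP replicate 2 close to Control, and the means were 417 ± 23.8 and 281 ± 67.1 (SD, n = 3). The log2 fold change of -0.56 ± 0.25 (SE) did not pass the adjusted p-value (DESeq2 adjusted p = 0.277). As CPM the groups overlapped, at 9.37 to 11.3 in Control and 4.45 to 10.3 in STREP animals. Raw counts were 459 to 674 in Control and 150.0 to 329 in STREP libraries, the smallest numbers behind any member.

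Myo3b (ENSRNOG00000030022), the paralogue that can partly replace Myo3a and lacks its tail actin-binding site, had 915, 659 and 490.2 normalised counts in Control and 671, 761 and 649 in STREP animals. The STREP range lay inside the Control range. Its fitted log2 fold change was 0.01 ± 0.25 (SE, DESeq2 adjusted p = 0.996), with a wide 95% Wald interval from -0.47 to 0.50 and a Control coefficient of variation of 31.1%.

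On the shaft, Ptprq fell, with a call that depended on single libraries. Ptprq (ENSRNOG00000056915) encodes a receptor-like inositol lipid phosphatase of the shaft connectors and had the highest mean count of the 10 genes, although Pls1 was higher in STREP replicate 3. Its normalised counts were 24500.1, 38049 and 33938 in Control and 18489, 22210.0 and 22857 in STREP animals. The groups did not overlap, but Control replicate 1 lay 1643 normalised counts above the highest STREP library and far below the other Control animals. The mean went from 32163 ± 6947 to 21185 ± 2358 (SD, n = 3), 1.52-fold lower and just past the threshold. In the DESeq2 fit this was -0.60 ± 0.18 on the log2 scale (SE, adjusted p = 0.0254).

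The call of Ptprq was lost on omitting Control replicate 2 (-0.47, DESeq2 adjusted p = 0.267), Control replicate 3 (-0.56, 0.191), the STREP replicate 1 library (-0.51, 0.211) or the STREP replicate 2 library (-0.64, 0.0530). Adding sex to the model kept it (-0.60, DESeq2 adjusted p = 0.0180), and edgeR with a count filter did not make it (-0.60, edgeR adjusted p = 0.246). Over all alternatives and omissions its adjusted p ran from 0.000169 to 1.

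The 3 pairs of paralogues were compared within libraries, by the log2 ratio of their counts, which does not depend on the scaling between libraries. The smallest p this design allows is 0.1, so no ratio could pass 0.05. Eps8 over Eps8l2 was -2.59, -3.10 and -2.54 in Control and -2.31, -2.06 and -2.38 in STREP animals. It was higher in all 3 STREP libraries, by 0.49 (exact two-sided permutation p = 0.1, adjusted over the 3 ratios 0.3). Myo3a over Myo3b differed by -0.65, from a mean of -0.68 ± 0.43 in Control to -1.33 ± 0.22 in STREP animals (SD, n = 3), and its groups overlapped (exact permutation p = 0.2, adjusted 0.3). Espn over Espnl differed by 0.33, with means of 2.54 ± 0.41 and 2.86 ± 0.33 (SD, n = 3), and overlapped as well (exact permutation p = 0.4, adjusted 0.4).

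The members were next set against 16 other HC genes in the same library. A gene expressed in HCs alone that moves with these genes keeps its level relative to them. For a gene that other cells also express, such as Eps8, this need not hold. The mean of log2(normalised count + 1) over these reference genes was lower in STREP animals by 0.18 (difference -0.18, exact permutation p = 0.1, the smallest possible). Of the 16, Cabp2, a calcium-binding protein, and Chrna9 and Chrna10, which form the efferent acetylcholine receptor, were called lower (-0.89, -0.88 and -0.70). Gfi1, a transcription factor of HC differentiation, was called higher (1.20). With edgeR and a count filter, Cabp2 was not called (edgeR adjusted p = 0.0501), whereas Chrna9, Chrna10 and Gfi1 were.

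Relative to this reference, Xirp2 differed by -0.58, from 1.39 ± 0.02 in Control to 0.82 ± 0.14 in STREP animals on the log2 scale (SD, n = 3). Fscn2 differed by -0.46, Myo3a by -0.41 and Espnl by -0.35, and these 4 genes did not overlap between groups. Eps8 differed by 0.63 without overlap, from -1.47 ± 0.31 to -0.83 ± 0.08 (SD, n = 3). Each of these 5 had an exact two-sided permutation p of 0.1, the smallest possible, or 0.2 adjusted over the 10 members. The share of all genes without overlap on this scale was not computed, and the shares given above hold for normalised counts. The number of members without overlap is therefore not read as a result about them. Ptprq, at -0.40, overlapped, with Control replicate 1 below the highest STREP library (exact permutation p = 0.3, adjusted 0.429). Espn (-0.024), Eps8l2 (0.14), Pls1 (0.22) and Myo3b (0.24) overlapped too. With Myo7a alone as the reference, which itself had a log2 fold change of -0.49, the differences were -0.27 for Xirp2 and -0.15 for Fscn2. They were -0.042 for Espnl, -0.10 for Myo3a and 0.94 for Eps8. Of these 5, Xirp2 and Eps8 kept an exact permutation p of 0.1. For Fscn2, Espnl and Myo3a it was 0.3, 0.5 and 0.7, so both the size and the separation of groups depended on the reference.

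**Figure D3:**
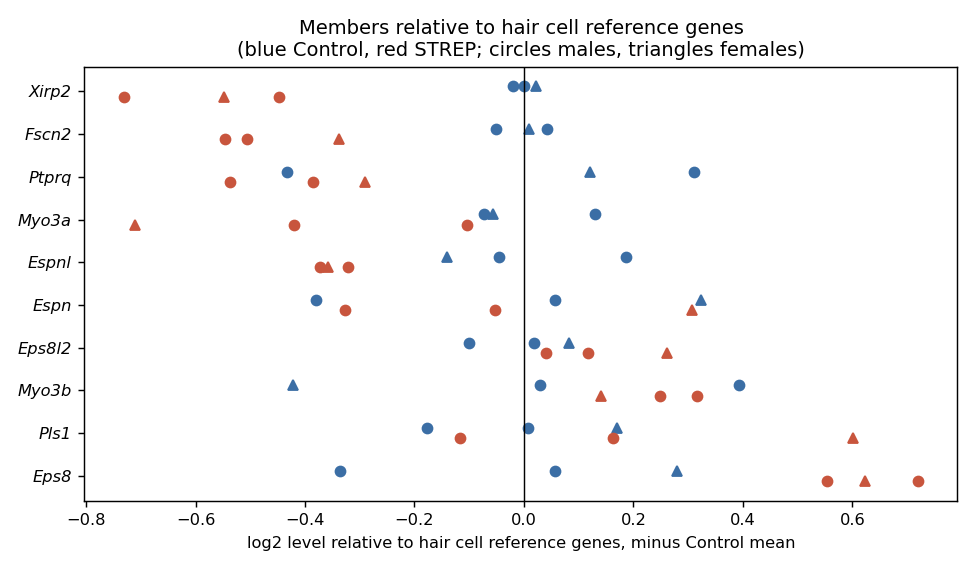
Log2 level of each gene relative to the mean of 16 HC reference genes in the same library, minus the Control mean (x axis), for Control (blue) and STREP (red) animals, with males as circles and females as triangles. Control points of Xirp2 and Fscn2 lie close together at 0 and all STREP points to their left, whereas those of Eps8 lie to the right.

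With 1 female per group, a difference between sexes cannot be told apart from a difference between single animals. In DESeq2, 0 of 10 had an adjusted or an unadjusted p under 0.05 for the interaction of sex and group. Over the whole table of 32883 genes, 34 had an adjusted p under 0.05, so 0 of 10 does not set the members apart. The share of all genes at an unadjusted p under 0.05 was not computed for the interaction. With sex as a covariate, the 3 calls were Xirp2, Fscn2 and Ptprq, where 1.41% of genes were called lower.

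Other genes of the bundle were read from 3 lists. Of 7 tested genes for actin and other crosslinkers, 0 were called by DESeq2 or edgeR and 0 had an unadjusted p under 0.05, with a median log2 fold change of -0.016. Actb, β-actin, averaged 205406 ± 32771 normalised counts for Control and 228890 ± 102867 for STREP animals (SD, n = 3), with STREP replicate 3 the highest of the 6 libraries. For Actn4, an α-actinin, it was 0.08 on the log2 scale (DESeq2 adjusted p = 0.955).

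Of 15 tested genes for tip complexes, filament elongation and capping, 0 were called by DESeq2 or edgeR, and the median log2 fold change was -0.036. At an unadjusted p under 0.05, 1 was lower and 1 higher. The most abundant in counts were Dstn, an actin-depolymerising factor, at 0.52 (DESeq2 adjusted p = 0.319), and Gnai3, a G protein subunit of the tip complex, at 0.18 (DESeq2 adjusted p = 0.659). Twf2, or twinfilin-2, a capping protein of stereocilia tips, is named after its values were seen. It had 5824 ± 207 and 4344 ± 451 normalised counts (SD, n = 3), and its log2 fold change of -0.42 passed the adjusted p-value (DESeq2 adjusted p = 0.0414) but not the fold change threshold. Without STREP replicate 2, 1 gene of this list was called lower, Myo15a, the motor that carries EPS8 to the tips, also named after its values were seen (-0.46 and DESeq2 adjusted p = 0.433 with all libraries).

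The taper, rootlet and cuticular plate lie where the core narrows and enters the cell body. Of 14 tested genes in the list made for them, 4 were called lower and 0 higher, against 1.37% and 1.87% of all genes. In the lower direction, 8 of the 14 had no overlap, against 8.63% of all genes. The median log2 fold change of the list was -0.31. Loxhd1 fell most in this list, although it encodes a protein of the stereocilia membrane rather than of this region. It went from 3107, 2749 and 2912 normalised counts in Control to 1224, 1410.1 and 1156 in STREP animals (log2 fold change -1.21 ± 0.15, SE, DESeq2 adjusted p = 1.49e-13). Pjvk, or pejvakin, fell by 0.67 on the log2 scale, Ankrd24, a rootlet protein, by 0.65, and Grxcr2, a taperin partner at the stereocilia base, by 0.62.

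The number called in this list was 2 without Control replicate 2, without Control replicate 3 or without STREP replicate 1, and 3 with edgeR and a count filter. Loxhd1 was called in all 6 omissions, Ankrd24 in 5, Grxcr2 in 4 and Pjvk in 1. The most abundant genes of the list were Myo6, the motor of the stereocilia base, at -0.13 (DESeq2 adjusted p = 0.821), and Sptan1, an α-spectrin of the cuticular plate, at -0.23 (DESeq2 adjusted p = 0.628).

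**Figure D4:**
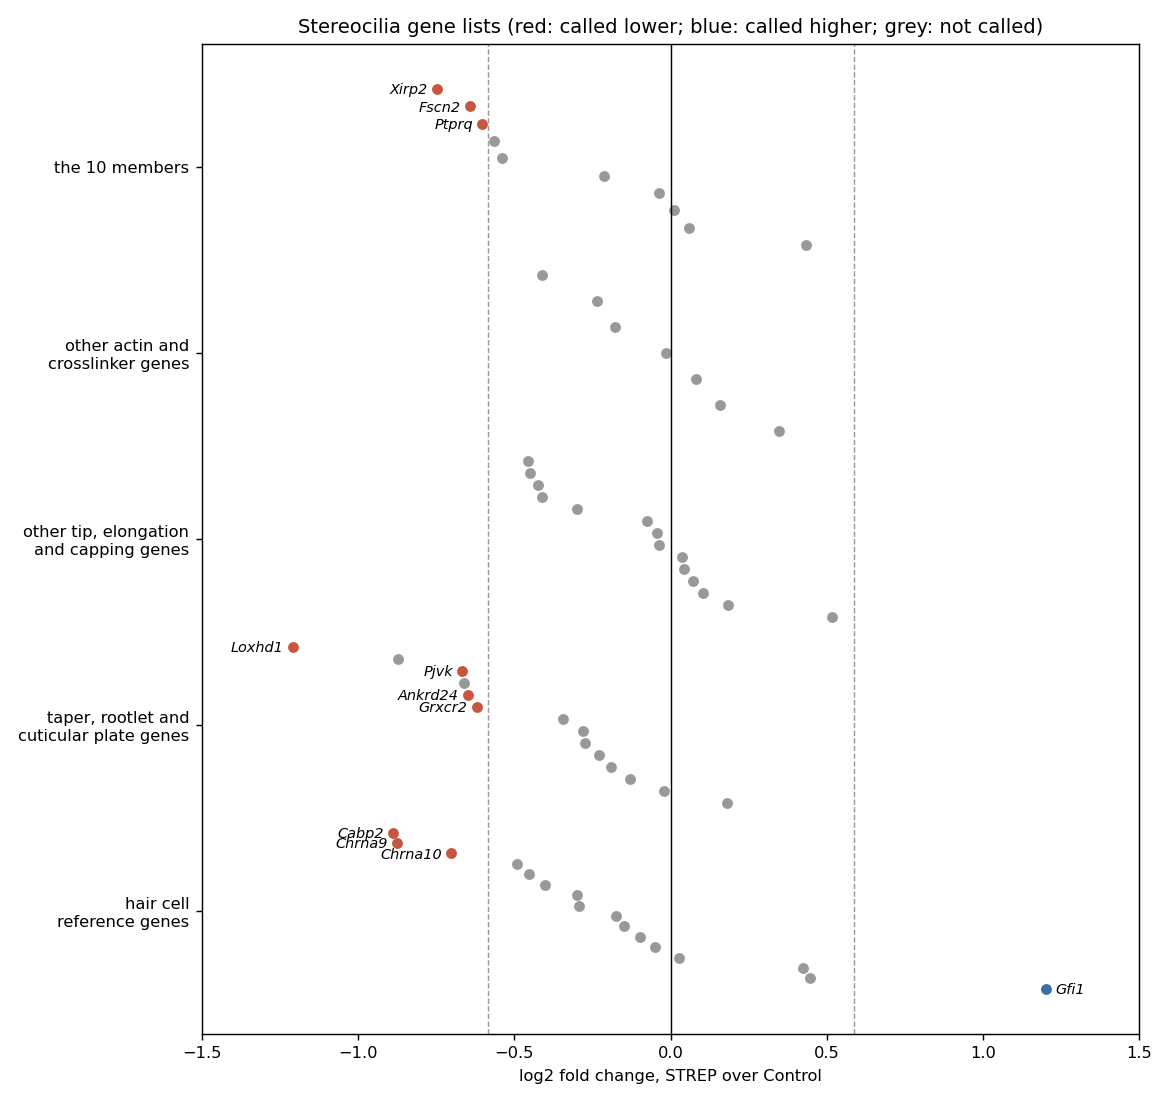
Log2 fold change (STREP over Control, x axis) of each gene that averaged 10 or more normalised counts, in the 10 members, 3 lists of other stereocilia genes and the HC reference genes, ordered within a list from top to bottom, with dashed lines at a 1.5-fold change. Red points are called lower and blue points higher. Calls lie among the members (3), the taper, rootlet and cuticular plate list (4, Loxhd1 among them) and the reference genes (4).

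Single animals were not low or high for all 10 genes alike. Within the Control group, replicate 2 held the lowest value for 4 of the 10 genes, and within the STREP group replicate 1 held the lowest value for 6 and the highest for 0. Among 12121 genes averaging 100 normalised counts or more, those whose pattern over the 6 libraries was most like Xirp2 were Zcchc17, Tjap1 and Syne4, with Pearson r of 0.997, 0.994 and 0.994. For Fscn2 they were Kcnh7, Kyat1 and Zfp618 (r of 0.994, 0.992 and 0.988), and for Ptprq Terf1, Fkbp11 and Lin37 (r of 0.988, 0.977 and 0.977). These r values describe 6 points that share the same group difference and carry no p-value.

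Marker lists of other cells held 2 called genes. The 12 supporting cell markers had a median log2 fold change of 0.28, with 0 called by DESeq2 or edgeR and 5 higher at an unadjusted p under 0.05. The 6 Schwann cell markers had a median of -0.51, with 6 of 6 below 0. Prx was called lower (-0.68), although its groups overlapped, it was called in 1 of 6 omissions, and edgeR did not call it (adjusted p = 0.198). Of the 6 neuron markers, Tubb3 was called higher (1.28), in 2 of 6 omissions and not by edgeR (adjusted p = 0.130). Of the others, 0 of 7 macrophage, 4 melanocyte and 5 connective tissue markers were called by DESeq2 or edgeR, with 2 higher, 2 lower and 1 lower at an unadjusted p under 0.05. The part of these lists in the values of the 10 genes was not tested.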

How the data were processed

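The authors prepared SMARTseq2 libraries from total RNA, sequenced them in paired-end mode, aligned the reads to Rnor6.0 with STAR 2.5.3a per the labels and quantified genes with RSEM 1.3.0 per the labels, using the Rnor6.0.92 annotation. They deposited expected counts per gene for each animal, unscaled between libraries and written as whole numbers (0 entries needed rounding). Reads shared by similar genes are divided by RSEM, so values of close paralogues carry that uncertainty. Counts do not record transcript length, so levels were not compared between genes other than as counts.

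The analysis ran DESeq2 1.42.0 under R 4.3.3 on all genes, following the study's methods. Libraries were scaled by the median of ratios, the model held the group alone, and Wald p-values were filtered on mean count at 0.05. Calls needed a Benjamini-Hochberg adjusted p under 0.05 and a fold change over 1.5. Alternatives used edgeR 4.0.16 quasi-likelihood tests, other scalings, filters, sex as a covariate, males alone, thinning, and omission of each library. Exact permutation tests were run over libraries. In simulated counts of the same design, the share of false calls was above the nominal rate with DESeq2. With edgeR it was smaller, and over repeated simulations it lay on both sides of the nominal rate. The titles of 2 STREP samples share a code number whose meaning is not stated, and they were taken as separate animals. The rats were group-housed and came from litters kept with their dams until weaning, and which animals shared a cage or litter is not given in the sources used here, so p-values measure the spread between these animals. Replicates differed by far more than sampling noise. A total of 3 counts, taken as the detection floor, came to 0.0501 to 0.102 CPM, for counting error only. The members and gene lists were chosen with earlier results of these data known. Named genes were the members, called genes of the lists, the 2 most abundant genes of each stereocilia list, and the 3 most similar patterns per called member. Otof, Myo7a and the muscle genes other than Tnnc1 were named outside this rule, as checks of tissue and cell type. Twf2, Myo15a, Prx, Tubb3, Tnnc1 and Otog were named after their values were seen. Eps8l3, on several rows of the table, was not used.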

Additional observations from a re-analysis of the deposited data

How the results depend on the processing

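The count of called genes, 527 with DESeq2, was 309 with library totals as size factors, 264 and 295 with edgeR with and without a count filter, and 82 when the Wald test itself was set against a 1.5-fold change. That test left 0 members and 1 gene of the taper, rootlet and cuticular plate list called. With each library left out, 424 to 517 genes and 2 to 3 members were called. So were 2 to 5 genes of the taper, rootlet and cuticular plate list and 0 to 1 tip genes. Xirp2 and Fscn2 lost their call only under that test. Ptprq lost it also with library totals, with edgeR and among males alone. Among males alone, Pls1 (-0.083) and Myo3b (-0.14) changed sign, as did Myo3b with library totals (-0.0084). With libraries left out, log2 fold changes ran from -0.16 to 0.19 for Pls1, -0.18 to 0.27 for Myo3b and -0.10 to 0.0023 for Eps8l2, so these 3 had no stable direction. Relative to the median of the reference genes, differences were -0.56 for Espnl, -0.67 for Fscn2, -0.79 for Xirp2 and -0.072 for Eps8l2, which changed sign. Levels were not centred per gene, so the genes that set this median differed between libraries. For that reason these differences cannot show how stable the members were. Relative to Myo7a alone they were -0.042 for Espnl, -0.15 for Fscn2, -0.27 for Xirp2, -0.10 for Myo3a, -0.095 for Ptprq, 0.45 for Eps8l2, 0.52 for Pls1, 0.54 for Myo3b and 0.94 for Eps8. The cause was not tested. Of 100 values of members under other settings, 90 kept direction and call, 7 became weaker and 3 reversed. All 7 belonged to Xirp2, Fscn2 or Ptprq, which stayed called under 9, 9 and 5 of 10 settings. The other members had no call to lose, so the 90 say little on the stability of calls. Omitting a library gave 60 further values, of which 6 reversed, 4 lost a call, 1 gained one and 49 did neither. The setting that moved the median of all genes most was library totals (-0.013). Myo3a had the fewest counts, 150.0 in its smallest library. No paired analysis was possible because the labels give no replicate numbers shared by the groups.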
